A study of Mus musculus with 10 samples.

Results

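IGKV15-103 is a V gene of the mouse immunoglobulin kappa light chain locus (Igk), and it was followed here through 6 Igk repertoire libraries of peritoneal cavity B cells. The gene was chosen by its share of clonotypes, which earlier work on these same data had shown to be raised in Igll1-/- B-1a cells, and its members are the clonotypes listed with IGKV15-103 as their only V gene. They numbered 1276 of the 44103 Igk clonotypes, on 1 of the 103 V genes that the tables listed singly. A clonotype is a rearrangement as the authors listed it, with its V gene, Jk gene and CDR3 amino acid sequence, and each comes with its number of reads. A few clonotypes of the same library agreed in V gene, Jk gene and CDR3. They were counted separately, except where sharing between libraries is described. The groups were WT B-1a cells, Igll1-/- B-1a cells and WT B-2 cells, with 2 libraries each. All came from the peritoneal cavity of C57BL/6 mice of 6 to 8 weeks. WT mice were wild type, and the others carried the Igll1-/- genotype. The labels do not say how many animals gave each library, so the tests below measure the spread between libraries. Igll1 expression cannot be read from genomic DNA, so the genotype was taken from the labels.

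Igk V genes are joined to a Jk gene during B cell development, and the junction encodes CDR3, the part of the light chain that differs most between cells. Igll1 encodes lambda 5, a component of the surrogate light chain, which pairs with a new heavy chain before a true light chain is made. B-1a cells are self-renewing B cells of the body cavities with a biased receptor repertoire, whereas B-2 cells are the conventional B cells. All 1276 IGKV15-103 clonotypes carried the tag ORF on allele 01. In the IMGT nomenclature this marks a germline gene with an open reading frame that is not classed as functional, for instance because a recombination signal, a splice site or a conserved residue departs from the norm. No other gene of the IGKV15 family was listed. RefSeq holds 5 Igkv15 genes, 4 of them pseudogenes, and places Igkv15-103 between Igkv16-104 and the pseudogene Igkv15-102.

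The CDR3s that held most of the IGKV15-103 reads are shown because the libraries differed in which of them were expanded. Each is written in single-letter amino acid code, with an asterisk for a stop codon, and named by its Jk gene and the libraries in which it stood out.
IGKJ5, largest in each library: QQGQSYPLT
IGKJ2, all libraries: QQGQSYPYT
IGKJ1, all libraries: QQGQSYPWT
IGKJ1, all libraries: QQGQSYPRT
IGKJ5, expanded in Igll1-/- replicate 2: QQGQSYPFT
IGKJ1, expanded in Igll1-/- replicate 2: QQGQSYPLWT
IGKJ2, expanded in Igll1-/- replicate 1: QQGQSYPT
IGKJ5 with a stop codon, expanded in Igll1-/- replicate 1: QQGQS*LT
The residues QQGQSYP opened the CDR3 of 94.4% to 97.4% of the reads of productive 9-residue clonotypes, and threonine closed 99.4% to 99.8% of them. Residue 8 was the one that varied in most reads. In germline sequence IGKJ1, IGKJ2, IGKJ4 and IGKJ5 contribute tryptophan, tyrosine, phenylalanine and leucine there.

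IGKV15-103 took more of the Igk repertoire in both Igll1-/- B-1a libraries than in any WT library. It held 135 of 7234 clonotypes in WT B-1a replicate 1 and 137 of 6963 in replicate 2, which were 1.87% (Wilson 95% confidence interval 1.58 to 2.20) and 1.97% (1.67 to 2.32). In Igll1-/- B-1a cells it held 344 of 5701 and 317 of 6940 clonotypes, or 6.03% (5.45 to 6.68) and 4.57% (4.10 to 5.08). In WT B-2 cells it held 184 of 8652 and 159 of 8613, or 2.13% (1.84 to 2.45) and 1.85% (1.58 to 2.15). The Igll1-/- libraries therefore stood apart from both WT groups, whose libraries overlapped. The mean share was 1.92% ± 0.07 (SD, n = 2) for WT B-1a, 5.30% ± 1.04 (SD, n = 2) for Igll1-/- B-1a and 1.99% ± 0.20 (SD, n = 2) for WT B-2 libraries. The log2 ratio of means was 1.47 for Igll1-/- against WT B-1a and 1.42 for Igll1-/- against WT B-2 cells. These values chose the gene and are given without a test. Over all V genes tested, 17.9% differed between Igll1-/- and WT B-1a cells and 22.6% between Igll1-/- B-1a and WT B-2 cells at an adjusted p under 0.05, and the gene's place among them follows from its choice. The intervals cover counting error only, since PCR reads without molecular identifiers are not independent molecules.

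**Figure D1:**
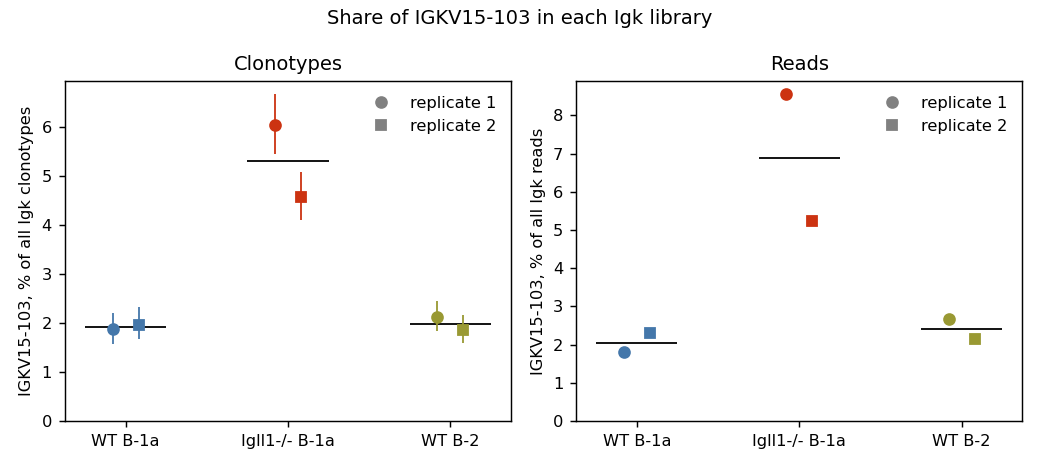
IGKV15-103 as a percent of all Igk clonotypes (left) and of all Igk reads (right) in each library. Circles and squares are replicates 1 and 2, black bars are group means and vertical lines are Wilson 95% intervals of the clonotype shares. Both Igll1-/- B-1a libraries, at 6.03% and 4.57% of clonotypes, lay above the 4 WT libraries, at 1.85% to 2.13%.

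Counted by reads, IGKV15-103 held 4961 of 275095 reads (1.80%) and 5620 of 245026 (2.29%) in WT B-1a cells. It held 18322 of 214000 (8.56%) and 14343 of 274339 (5.23%) in Igll1-/- B-1a cells. In WT B-2 cells it held 7662 of 288396 (2.66%) and 6213 of 288355 (2.15%). The order of the groups was as by clonotypes, and the Igll1-/- replicates lay further apart than those of either WT group. The gene ranked 13 and 12 among the V genes by clonotypes in WT B-1a, 3 and 4 in Igll1-/- B-1a, and 11 and 12 in WT B-2 cells. By reads the ranks were 13 and 12, 2 and 5, and 7 and 10.

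The WT groups were compared as well, and this contrast did not choose the gene. It shares the WT B-1a libraries with the choice, so it is not independent of it. WT B-1a and WT B-2 cells differed by -0.051 on the log2 scale (standard error 0.20, edgeR's quasi-likelihood test, adjusted p = 0.931 over 84 V genes), so that no difference in IGKV15-103 between B-1a and B-2 cells was detected. In this comparison 3.57% of V genes passed, namely 3 of 84. As a check of the labels, IGKV4-91 and IGKV14-126, V genes of phosphatidylcholine-binding B-1a cells, held 6.29% and 5.09% of WT B-1a clonotypes on average against 1.37% and 1.56% in WT B-2 cells. In Igll1-/- B-1a cells they held 2.97% and 0.71%, so that IGKV14-126 was at a lower level there than in WT B-2 cells. These markers moved with the genotype as IGKV15-103 did, in the opposite direction, and their part in the share of IGKV15-103 was not tested.

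The V genes numbered 98 to 110, the neighbours of IGKV15-103 by name, included 5 that could be tested. Of these, IGKV1-110 alone differed, rising from 4.24% ± 0.20 (SD, n = 2) of WT B-1a to 7.45% ± 0.16 (SD, n = 2) of Igll1-/- B-1a clonotypes (log2 fold change 0.81 with standard error 0.11, adjusted p = 0.00034 by edgeR). The 4 others had log2 fold changes of -0.18 (IGKV14-100), -0.17 (IGKV2-109), 0.24 (IGKV16-104) and 0.48 (IGKV12-98), with edgeR adjusted p-values of 0.446 to 0.827. IGKV16-104, which lies next to IGKV15-103, held 0.719% and 1.16% of WT B-1a, 1.39% and 0.850% of Igll1-/- B-1a, and 1.53% and 1.39% of WT B-2 clonotypes. Its Igll1-/- B-1a libraries thus overlapped the WT B-1a libraries, which those of IGKV15-103 did not. The median log2 fold change was 0.24 over the 5 neighbours and -0.17 over all 84 V genes. Against WT B-2 cells IGKV1-110 was again the 1 neighbour that differed (0.81, edgeR adjusted p = 0.00047), and between the WT groups none of the 5 did, with IGKV14-100 at the largest difference (-0.71, edgeR adjusted p = 0.347).

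**Figure D2:**
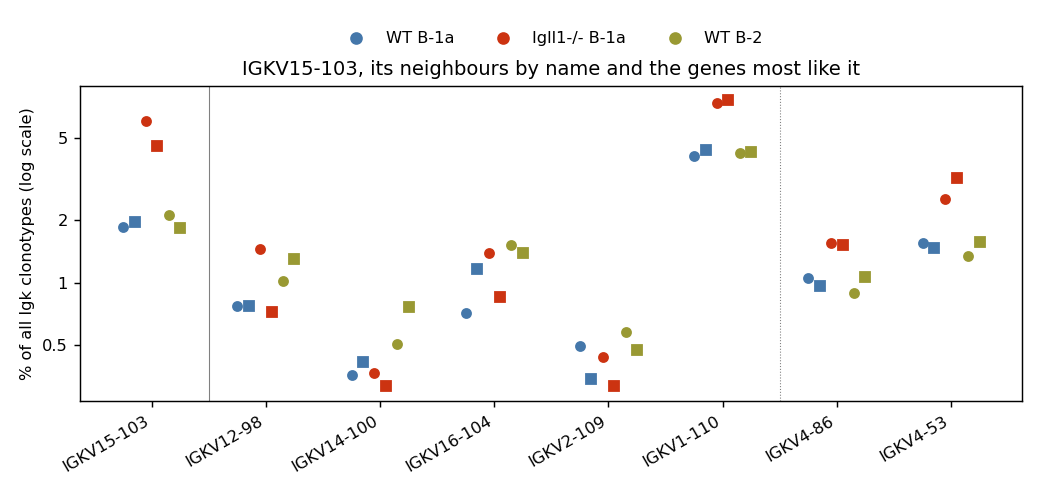
Percent of all Igk clonotypes (log scale) in each of the 6 libraries for IGKV15-103 (left of the solid line), its tested neighbours by name, and the other genes with the most similar pattern (right of the dotted line). Colours are groups, circles replicate 1 and squares replicate 2. Of the neighbours, IGKV1-110 alone had both Igll1-/- libraries, at 7.33% and 7.56%, above the WT libraries.

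The genes whose share followed that of IGKV15-103 most closely over the 6 libraries were IGKV1-110, IGKV4-86 and IGKV4-53, with Pearson's r of log2 shares of 0.973, 0.923 and 0.898. This likeness is a description over 6 libraries of 3 groups that share their totals. IGKV4-86 held 1.05% and 0.962% of WT B-1a, 1.56% and 1.51% of Igll1-/- B-1a, and 0.890% and 1.07% of WT B-2 clonotypes. IGKV4-53 held 1.55% and 1.46%, 2.54% and 3.18%, and 1.34% and 1.58% in the same order. In all, 10 of the 84 V genes had both Igll1-/- libraries above the 4 WT libraries. Among the 7 genes tagged ORF, IGKV15-103 was the most used. The next, IGKV4-52, which was picked here after its values were seen, ran the other way at 0.995% and 0.847% of WT B-1a, 0.351% and 0.461% of Igll1-/- B-1a, and 0.948% and 0.975% of WT B-2 clonotypes. Its log2 fold change was -1.17 between Igll1-/- and WT B-1a cells (edgeR adjusted p = 0.058). Between Igll1-/- B-1a and WT B-2 cells it was -1.23 (edgeR adjusted p = 0.042).

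Despite the ORF tag, most IGKV15-103 clonotypes were productive, that is, in frame and without a stop codon. In WT B-1a cells 114 of 135 (84.4%) and 121 of 137 (88.3%) were productive. In Igll1-/- B-1a cells 259 of 344 (75.3%) and 256 of 317 (80.8%) were, and in WT B-2 cells 163 of 184 (88.6%) and 131 of 159 (82.4%). Both Igll1-/- libraries thus lay below the 4 WT libraries, while all other Igk clonotypes were productive at 86.5% to 88.6% in every library. The log2 odds of a productive clonotype differed by -0.83 (standard error 0.35) between Igll1-/- and WT B-1a cells and by -0.74 (0.34) between Igll1-/- B-1a and WT B-2 cells. Neither passed after adjustment over 66 V genes (edgeR adjusted p = 0.430 and 0.497). Between the WT groups the difference was 0.088 (0.38), with an edgeR adjusted p of 0.941. The share of V genes that passed was 0% in each of these comparisons (0 of 66 by edgeR), with 7, 6 and 3 genes at an unadjusted p under 0.05. Without Igll1-/- replicate 2 the differences were -1.05 and -0.97 (edgeR adjusted p = 0.016 and 0.017), and without Igll1-/- replicate 1 they were -0.59 and -0.51 (0.536 and 0.790). The difference from WT B-1a cells was -0.46 with near-identical clonotypes merged, -2.24 by reads and -4.11 with at least 10 reads, and it passed in none of these fits (edgeR adjusted p = 0.869, 0.426 and 0.279). That from WT B-2 cells was -0.86, -1.73 and -0.17 under the same settings (edgeR adjusted p = 0.545, 0.446 and 0.834). The -4.11 had a standard error of 1.59, and every WT B-1a clonotype with at least 10 reads was productive.

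Weighted by reads, the productive share was 99.2% and 99.5% in WT B-1a, 92.2% and 98.9% in Igll1-/- B-1a, and 99.3% and 98.9% in WT B-2 cells. Igll1-/- replicate 1 was the library that departed. It held 1190 reads of 1 stop-carrying IGKJ5 clonotype, shown last among the sequences above, which had 1, 3, 1, 0 and 0 reads in WT B-1a replicates 1 and 2, Igll1-/- replicate 2 and WT B-2 replicates 1 and 2. Of the unproductive clonotypes, those with a stop codon inside CDR3 numbered 15 and 11 in WT B-1a, 58 and 35 in Igll1-/- B-1a, and 10 and 22 in WT B-2 cells. The rest, without one, numbered 6 and 5, 27 and 26, and 11 and 6. The call could differ between libraries for the same Jk gene and CDR3. QQGQSYPLA with IGKJ5 was called unproductive in WT B-2 replicate 1 (18 reads) but productive in Igll1-/- replicates 1 and 2 (47 and 25 reads). How far this bears on the productive shares was not tested. Among clonotypes with at least 10 reads, 14 of 14 and 16 of 16 were productive in WT B-1a, 40 of 46 and 29 of 31 in Igll1-/- B-1a, and 20 of 21 and 10 of 12 in WT B-2 cells. At this minimum the Igll1-/- libraries lay below both WT B-1a libraries and overlapped those of WT B-2 cells. The unproductive ones included the IGKJ5 forms of QQGQSYPLT with a stop codon at residue 1 or residue 4. These had 29 and 23 reads in Igll1-/- replicate 1, 10 each in replicate 2 and 2 to 6 in the WT B-1a libraries. QQGQSYPLT with IGKJ5 itself had 2336 and 3609 reads in WT B-1a and 11494 and 5540 in Igll1-/- B-1a cells. The part of its size in this difference was not tested.

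**Figure D3:**
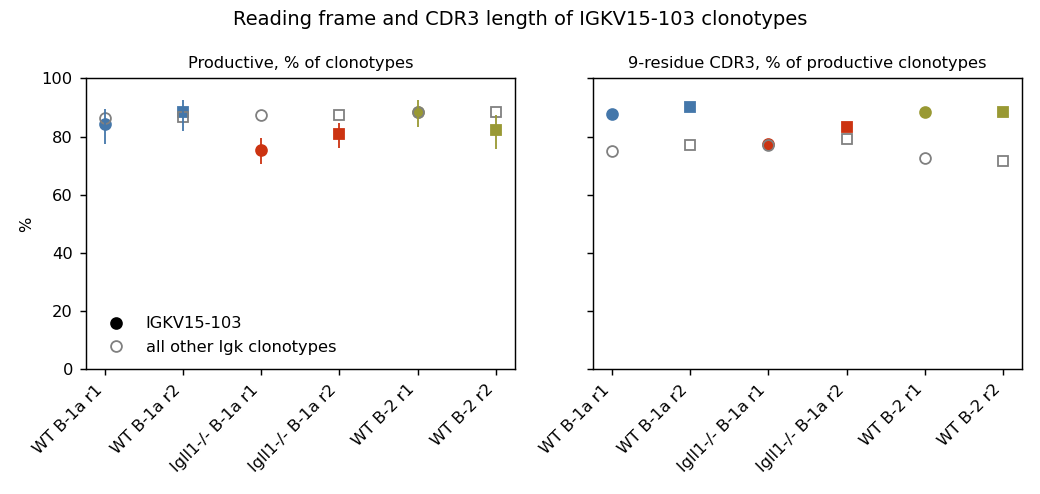
Productive clonotypes as a percent of IGKV15-103 clonotypes (left, with Wilson 95% intervals) and 9-residue CDR3s as a percent of productive IGKV15-103 clonotypes (right) in each library, where r1 and r2 are replicates 1 and 2. Open symbols give the same for all other Igk clonotypes. On the left the Igll1-/- libraries are lowest, at 75.3% and 80.8%.

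CDR3s of 9 residues were the usual form of IGKV15-103. They made up 100 of 114 (87.7%) and 109 of 121 (90.1%) productive clonotypes in WT B-1a, 201 of 259 (77.6%) and 213 of 256 (83.2%) in Igll1-/- B-1a, and 144 of 163 (88.3%) and 116 of 131 (88.5%) in WT B-2 cells. Both Igll1-/- libraries were again the lowest. Among all other productive Igk clonotypes 9 residues was also the usual length. It made up 74.9% and 77.3% in WT B-1a, 77.2% and 79.3% in Igll1-/- B-1a, and 72.5% and 71.8% in WT B-2 cells. The log2 odds differed by -0.95 (standard error 0.47) between Igll1-/- and WT B-1a cells, by -0.88 (0.46) between Igll1-/- B-1a and WT B-2 cells, and by 0.070 (0.50) between WT B-1a and WT B-2 cells. None passed (edgeR adjusted p = 0.337, 0.293 and 0.985 over 77 V genes), in comparisons where 6.49%, 5.19% and 0% of V genes did. In the last, 0 of 77 passed by edgeR and 4 had an unadjusted p under 0.05. Without Igll1-/- replicate 2 the differences from WT B-1a and WT B-2 cells were -1.20 and -1.13 (edgeR adjusted p = 0.030 and 0.034), and without Igll1-/- replicate 1 they were -0.69 and -0.62 (0.236 and 0.240). With at least 10 reads per clonotype both changed sign, to 0.85 and 1.56 (edgeR adjusted p = 0.622 and 0.121).

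By reads the other lengths were held by few clonotypes. CDR3s of 8 residues took 2.04% and 0.961% of IGKV15-103 reads in WT B-1a, 11.1% and 0.063% in Igll1-/- B-1a, and 2.04% and 1.82% in WT B-2 cells. Igll1-/- replicate 1 was highest and replicate 2 lowest of all libraries. Of the 2026 such reads in replicate 1, 1190 belonged to the stop-carrying IGKJ5 clonotype. The productive QQGQSYPT with IGKJ1 had 296 of them, and with IGKJ2 it had 331, the latter against 20 in WT B-1a replicate 1, 17 in WT B-2 replicate 1 and 0 in the other 3 libraries. CDR3s of 10 residues took 0.343% and 0.391%, 2.06% and 5.95%, and 0.783% and 0.048% of reads in the same order. Here the Igll1-/- libraries were the highest, and in replicate 2 the clonotype QQGQSYPLWT with IGKJ1 accounted for 810 of 854 such reads. It had 15 reads in WT B-1a replicate 1, 5 in WT B-2 replicate 1 and 0 elsewhere. CDR3s of more than 20 residues numbered 3 and 3 in WT B-1a, 26 and 6 in Igll1-/- B-1a, and 1 and 2 in WT B-2 cells, with 1 read each. They were 7.56% of the gene's clonotypes in Igll1-/- replicate 1 and 1.89% in replicate 2, where 5.26% and 1.95% of all other Igk clonotypes were as long.

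No difference between groups in the Jk gene joined to IGKV15-103 passed the test. The Jk gene is the one the authors' assignment named. In productive 9-residue clonotypes opening with QQGQSYP, the germline residue 8 was on 47.9% to 66.0% of the reads named IGKJ1. For IGKJ2 it was on 62.0% to 91.1%. How often the named Jk gene was not the one joined was not tested. IGKJ5, the Jk gene farthest from the V genes, was on 42.2% and 52.2% of the WT B-1a clonotypes with a single Jk gene, on 51.2% and 52.4% of Igll1-/- B-1a and on 44.6% and 39.0% of WT B-2 clonotypes. IGKJ1 was on 31.9% and 23.5%, 26.9% and 30.2%, and 29.9% and 35.8%. IGKJ2 was on 24.4% and 22.1%, 20.5% and 15.9%, and 25% and 23.9%. For IGKJ2 both Igll1-/- libraries were the lowest, and this was not particular to IGKV15-103. Among all other Igk clonotypes IGKJ2 was on 20.4% and 21.7% in Igll1-/- B-1a and on 23.6% to 26.4% in the WT libraries. For IGKJ1 and IGKJ5 on IGKV15-103 the Igll1-/- and WT B-1a libraries overlapped. IGKJ4 was on 1 to 4 clonotypes per library and IGKJ3, which is not used in functional kappa chains, on 0 to 2.

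Of the 12 tests of a Jk gene on IGKV15-103, 0 passed, in comparisons where 3.75% (Igll1-/- against WT B-1a), 0% (WT B-1a against WT B-2) and 2.62% (Igll1-/- B-1a against WT B-2) of 267 pairs of V and Jk genes did. In that with 0, edgeR gave 25 pairs an unadjusted p under 0.05. The smallest adjusted p was that of IGKJ5 between Igll1-/- B-1a and WT B-2 cells, with a difference in log2 odds of 0.58 (standard error 0.31, edgeR adjusted p = 0.352). For IGKJ2 the difference was -0.45 (0.34) against WT B-1a and -0.55 (0.33) against WT B-2 cells, with edgeR adjusted p-values of 0.611 and 0.412. Between Igll1-/- and WT B-1a cells IGKJ5 differed by 0.26 (0.32) and IGKJ1 by 0.062 (0.37), with edgeR adjusted p-values of 0.784 and 0.966.

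**Figure D4:**
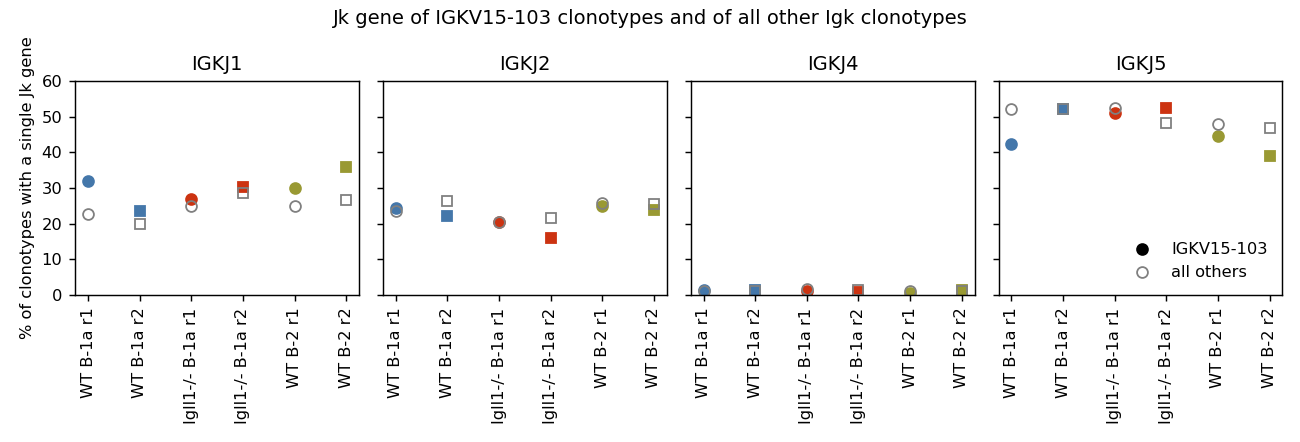
Percent of clonotypes with a single Jk gene that carried IGKJ1, IGKJ2, IGKJ4 or IGKJ5 in each library, for IGKV15-103 (filled) and all other Igk clonotypes (open). Colours are groups, and r1 and r2 are replicates 1 and 2. IGKJ5 was on 39.0% to 52.4% of IGKV15-103 clonotypes and IGKJ4 on at most 1.48%.

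A single clonotype, QQGQSYPLT with IGKJ5, was the largest of IGKV15-103 in each of the 6 libraries. It had 2336 and 3609 reads in WT B-1a, 11494 and 5540 in Igll1-/- B-1a, and 4243 and 3131 in WT B-2 cells. This was 47.1% and 64.2%, 62.7% and 38.6%, and 55.4% and 50.4% of the reads of the gene. As a share of the gene's reads the groups overlapped, with Igll1-/- replicate 2 the lowest library. The 3 largest clonotypes together held 72.0% to 80.2% of the reads in every library. Without the largest clonotype IGKV15-103 still had 2625 and 2011 reads in WT B-1a, 6828 and 8803 in Igll1-/- B-1a, and 3419 and 3082 in WT B-2 cells, so the higher Igll1-/- read count did not rest on it alone.

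The next clonotypes in size differed between the Igll1-/- libraries. QQGQSYPYT with IGKJ2 had 702 and 530 reads in WT B-1a, 1760 and 896 in Igll1-/- B-1a, and 957 and 1005 in WT B-2 cells. QQGQSYPWT with IGKJ1 had 681 and 367, 505 and 1663, and 702 and 765. Both were among the common clonotypes of each library. By contrast, QQGQSYPFT with IGKJ5 had 3123 reads in Igll1-/- replicate 2 and 18 in replicate 1, with 5 and 4 in WT B-1a and 4 and 2 in WT B-2 cells. Phenylalanine at residue 8 is the IGKJ4 residue, although the tables named IGKJ5 for this clonotype. It thus followed 1 library and not the genotype, as did the stop-carrying clonotype of Igll1-/- replicate 1. Leucine at residue 8 was accordingly on 82.5% of reads with the QQGQSYP opening in Igll1-/- replicate 1 and on 51.9% in replicate 2, and on 62.9% to 79.0% in the WT libraries.

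**Figure D5:**
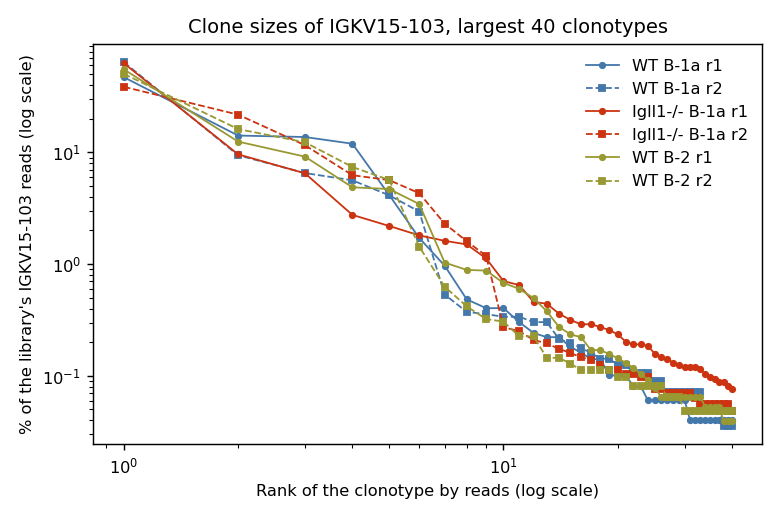
Size of the 40 largest IGKV15-103 clonotypes of each library as a percent of the library's IGKV15-103 reads, against their rank (both axes log scale). Solid and dashed lines are replicates 1 and 2. The largest clonotype held 38.6% to 64.2% of the reads, and Igll1-/- replicate 2 had the lowest first and the highest second point.

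Most IGKV15-103 clonotypes were small, and 56.2% to 65.2% of them in a library rested on 1 read, against 57.7% to 59.1% of all other Igk clonotypes. Those that differed from the largest clonotype at 1 residue of equal length numbered 54 and 56 in WT B-1a, 89 and 91 in Igll1-/- B-1a, and 68 and 58 in WT B-2 cells. They were 40% and 40.9%, 25.9% and 28.7%, and 37.0% and 36.5% of the gene's clonotypes, and how many of them came from PCR or sequencing error was not tested. When clonotypes within 1 residue of a clonotype holding at least 10 times their reads were merged into it, 54 and 62, 148 and 102, and 70 and 61 remained. The gene then held 1.92% and 2.19% of WT B-1a, 6.68% and 3.88% of Igll1-/- B-1a, and 2.07% and 1.79% of WT B-2 clonotypes, with the Igll1-/- libraries again the highest. With at least 10 reads per clonotype it held 1.29% and 1.52%, 5.61% and 3.47%, and 1.497% and 0.829%.

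Some clonotypes had a CDR3 unlike the rest. Those with at least 3 differences from QQGQSYP in the first 7 residues numbered 21 and 29 in WT B-1a, 77 and 39 in Igll1-/- B-1a, and 32 and 27 in WT B-2 cells, but they held only 0.418% to 1.04% of the gene's reads. Of these, 18 and 22, 39 and 23, and 23 and 22 had the same Jk gene and CDR3 as a clonotype of another V gene with more reads in the same library. That was 85.7% and 75.9%, 50.6% and 59.0%, and 71.9% and 81.5% of them, with both Igll1-/- libraries the lowest. The reason was not tested. The share of IGKV15-103 clonotypes that were so unlike the rest was 15.6% and 21.2%, 22.4% and 12.3%, and 17.4% and 17.0%, and the groups overlapped. Among clonotypes with at least 10 reads, identity to the germline V gene averaged 98.8% and 98.9% in WT B-1a, 98.6% and 98.1% in Igll1-/- B-1a, and 98.6% and 99.1% in WT B-2 cells.

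Some IGKV15-103 clonotypes were found in all 6 libraries. Defined by Jk gene and CDR3, 744 distinct clonotypes were found, of which 34 (4.57%) were in all 6 libraries and 530 (71.2%) in 1. Over the 84 V genes the median share in all 6 libraries was 2.90%, and IGKV15-103 ranked 19. The shared clonotypes held 95.5% and 96.1% of the gene's reads in WT B-1a, 83.6% and 88.7% in Igll1-/- B-1a, and 94.2% and 95.7% in WT B-2 cells. Both Igll1-/- libraries were lowest. The expanded stop-carrying clonotype of replicate 1 and QQGQSYPLWT of replicate 2 were not among the 34. They held 6.49% and 5.65% of the gene's reads in their library. Among productive clonotypes only, those in all 6 libraries held 89.4% and 88.9% in Igll1-/- B-1a cells, and 93.4% to 96.0% in the WT libraries. Besides the large clonotypes, the 34 included QQGQSYPRT with IGKJ1, QQGQSYPLT with IGKJ1 and with IGKJ2, and QQGQSYPPT with IGKJ5. QQGQSYPLT with IGKJ1 had 593 and 232 reads in WT B-1a, 402 and 618 in Igll1-/- B-1a, and 373 and 460 in WT B-2 cells. A further 22, beside QQGQSYPFT and QQGQSYPPT, matched QQGQSYPLT with IGKJ5 except at 1 residue, with 12 to 193 reads in all 6 libraries together. Some of these 22 carried a stop codon in CDR3, such as QQG*SYPLT with 49 reads. How many of the 22 came from PCR or sequencing error was not tested.

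The lists of the libraries were of unequal size, so sharing between pairs is given as a share of each list. The WT B-1a replicates shared 57 clonotypes, 42.5% and 41.6% of their lists. The Igll1-/- replicates shared 114, or 33.4% and 36.2%, and the WT B-2 replicates 73, or 39.9% and 46.5%. Igll1-/- and WT B-1a libraries shared 70 to 75 clonotypes, which were 51.1% to 56.0% of a WT B-1a and 20.8% to 23.8% of an Igll1-/- list. With WT B-2 libraries the Igll1-/- libraries shared 86 to 92, or 48.1% to 56.7% of a WT B-2 list and 25.8% to 29.2% of their own. Of the 114 clonotypes in both Igll1-/- libraries, 18 were in no WT library, and the largest of them, QQGQSYPLRT with IGKJ1, had 325 reads in replicate 1 and 1 in replicate 2. Of all 744 clonotypes, 530 were found in 1 library only, and for 343 of these it was an Igll1-/- library. With at least 2 reads per clonotype the latter were 116 of 240. The Igll1-/- lists were also the longest, with 341 and 315 clonotypes against 134 to 183 in the WT lists. How many of the 343 and of the 18 list length alone would give was not tested. Nor were these counts compared with those of other V genes. None of the 18 had more than 2 reads in both Igll1-/- libraries.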

How the data were processed

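Igk rearrangements were amplified by the authors from genomic DNA of sorted cells with a degenerate V primer and further primers for V genes common in B-1a cells, size selected at 100 to 280 bp, sequenced, and assigned with IMGT/High-V-QUEST. The share of a V gene therefore depends on its primer. The authors deposited 1 table per library with the raw count of reads of each clonotype and its percent identity to the germline V gene. The genome build is not given in the sources used here, and the 4 Igh libraries were not used.

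A clonotype counted as 1 for its V gene, whatever its reads. Clonotypes listed with several V genes (5.72% to 6.68% of a library) stayed in the total only, and 0 of them named IGKV15-103. The fit took V genes that had 10 or more clonotypes in 2 or more libraries, with edgeR 4.0.16 (quasi-likelihood test, library size the number of all clonotypes, Benjamini-Hochberg adjustment at 0.05), with DESeq2 1.42.0 as an alternative, in R 4.3.3. For the productive share, Jk genes and 9-residue CDR3s the 2 counts of each V gene and library entered the same test with a baseline per library and log odds per group. The fits were also run on simulated data. For the log odds the simulated counts held no spread between libraries beyond sampling. They therefore do not show how those fits behave at the spread seen here. Tables were made with Python 3.11.15, pandas 2.3.3 and scipy 1.17.1. A share of 3 clonotypes, the floor of detection, was 0.035% to 0.053% of a library. Replicates differed by more than sampling noise (chi-square 283 on 87, 751 on 81 and 152 on 90 degrees of freedom in WT B-1a, Igll1-/- B-1a and WT B-2 libraries), so all 6 were kept. Same-numbered libraries did not deviate together (r = 0.031, 0.0067 and -0.19 across 84 V genes), so the numbers were not taken as pairs.

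The gene, the lists and the tests were chosen with earlier results of these data known. The genes named are IGKV15-103, the tested V genes numbered 98 to 110, and the 3 with the highest Pearson correlation of log2 share (0.5 clonotypes added). The CDR3s named are the 3 largest productive ones of each library and those in all 6, and others are named for their reads. RefSeq names (GRCm38.p6) matched 83 of the 84 V genes. RefSeq start positions served only to order the Igkv genes around Igkv15-103, and no coordinates are printed. Alternatives were counting reads, minimums of 2 and 10 reads, merging, productive clonotypes only, other denominators, TMM, no filter, a replicate block and leaving out each library.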

Additional observations from a re-analysis of the deposited data

How the results depend on the processing

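The higher share of IGKV15-103 in Igll1-/- B-1a cells kept its direction under all 8 alternatives against WT B-1a (log2 ratio 1.31 to 1.94) and all 7 against WT B-2 cells (1.30 to 1.97). The alternatives furthest from 1.47 and 1.42 were reads without the largest clonotype of each V gene (1.94, chosen after seeing the data) and at least 10 reads (1.97). Leaving out each library in turn gave 1.25 to 1.65 and 1.20 to 1.60. The gene was chosen for this difference in the same libraries, so the kept direction is a description and no independent support. Both Igll1-/- shares lay above those of all WT libraries, so leaving out 1 library could not reverse it. The difference of -0.051 between WT B-1a and WT B-2 cells changed sign with at least 10 reads (0.28), merging (0.089), DESeq2 (0.25) and TMM (0.15), ran from -0.15 to 0.054 with a library left out, and passed in none of these fits. TMM moved the median of all V genes from -0.22 to -0.022 there, and from -0.17 to 0.083 between Igll1-/- and WT B-1a cells, where 7 V genes were called higher and 8 lower, and by TMM 10 and 6. Against WT B-2 cells 6 were higher and 13 lower, and by TMM 7 and 1, by DESeq2 8 and 0.

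Counts of V genes called moved more. The 15 between Igll1-/- and WT B-1a cells ran from 7 (without either WT B-1a library) to 31 (without Igll1-/- replicate 2) as libraries were left out, the 3 between the WT groups from 1 to 12, and the 19 between Igll1-/- B-1a and WT B-2 cells from 6 to 39. The 3 became 5 with at least 2 reads, 6 with merging, 11 without the filter and 8 with the replicate block. The 19 became 10 with at least 10 reads and 8 with DESeq2 or TMM, and 18 with crossed pairing, added because r was -0.19. With the replicate block the WT B-1a and WT B-2 shares differed by -0.044 (edgeR adjusted p = 0.963), and the block changed no call for IGKV15-103.

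Of 120 values of frame, CDR3 length and Jk gene under alternatives other than leaving out a library, 0 passed by edgeR. Signs changed as follows. For the 9-residue share they did so with at least 10 reads against WT B-1a (0.85), and with at least 2 (0.35) and 10 reads (1.56) against WT B-2 cells. For the productive share between the WT groups it did so with merging (-0.40). For IGKJ1 between Igll1-/- and WT B-1a cells it did so by reads (-0.54), with at least 10 reads (-1.58) and with merging (-0.24), and against WT B-2 cells with at least 2 reads (0.22). For IGKJ4 it did so by reads against WT B-1a (1.49), with merging against WT B-2 (-0.20) and by reads between the WT groups (-0.71). Between the WT groups with at least 10 reads it did so for IGKJ1 (0.023), IGKJ2 (0.17) and IGKJ5 (-0.17). The causes were not tested. With a library left out, ranges were -1.08 to -0.59, -0.29 to 0.44 and -1.12 to -0.39 for the productive share (Igll1-/- against WT B-1a, WT B-1a against WT B-2, Igll1-/- against WT B-2) and -1.20 to -0.69, -0.099 to 0.25 and -1.13 to -0.62 for 9-residue CDR3s, with 4 values past the threshold, each without Igll1-/- replicate 2. For IGKJ1 they were -0.23 to 0.37, -0.66 to -0.060 and -0.49 to -0.098, for IGKJ2 -0.68 to -0.24, -0.19 to -0.0011 and -0.78 to -0.34, for IGKJ4 -0.68 to -0.39, 0.24 to 1.38 and -0.28 to 0.87, and for IGKJ5 -0.025 to 0.55, 0.025 to 0.60 and 0.42 to 0.75. The 34 clonotypes in all 6 libraries became 7 with at least 10 reads, 23 with at least 2 and 25 among productive ones. No clonotype named IGKV15-103 among several V genes, so counting such clonotypes to it changed nothing. A fit with 1 library in a group assumes that it varies like the other groups.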
